A study of Mus musculus with 12 samples.

Results

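The genes described here are 9 that set up or serve the macrophage lineage. They are the transcription factor genes *Spi1*, *Runx1*, *Fli1*, *Maf* and *Zeb2*, the colony-stimulating factor (CSF) receptor genes *Csf1r*, *Csf2ra* and *Csf2rb*, and the signalling adaptor gene *Tyrobp*. They were chosen by symbol for these known roles, with earlier results of these data known. Of them, 9 of 9 were listed among the 12960 genes of the count table. All 9 also passed the filter on low counts, which left 10822 genes for testing.

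The libraries are RNA sequencing of primary bone marrow-derived macrophages (BMDMs) from WT mice and from AMPKβ1-/- mice, which lack the β1 regulatory subunit of AMP-activated protein kinase (AMPK) in the whole animal. Marrow of both genotypes was differentiated for 7 days in L929-conditioned medium. It supplies M-CSF (CSF1), so every group had the ligand of the CSF1 receptor during differentiation. The cells were then reseeded and treated for 6 h, in a medium that is not described here. They received PF-06409577 (PF), an activator selective for AMPK complexes that contain β1, at 10 µM, or DMSO at 0.1% as vehicle. Each of the 4 groups has 3 libraries. The age of the mice is not given in the sources used here, and nothing says whether the 3 libraries of a group came from separate mice or cultures, so p-values measure only the spread between these libraries, which may be technical.

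PU.1, the product of *Spi1*, is the ETS-family factor on which macrophage identity depends, and it acts at myeloid enhancers and promoters together with RUNX1 and other factors. One of its best known targets is *Csf1r*, whose product transmits the survival signal of CSF1, while *Csf2ra* and *Csf2rb* encode the α chain and the common β chain of the GM-CSF receptor. FLI1 is another ETS factor of blood cells, c-MAF is a basic leucine zipper factor that limits proliferation of mature macrophages, ZEB2 is a zinc finger factor that maintains the identity of tissue macrophages, and TYROBP (DAP12) is the membrane adaptor that carries the signal of receptors such as TREM2.

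Libraries held 8935609 to 14358180 counts assigned to genes. Values are given as CPM, counts relative to the library size after scaling by TMM (trimmed mean of M values). *Prkab1*, which encodes AMPKβ1, had 43.4, 44.2 and 45.3 CPM in WT libraries with vehicle and 41.9, 37.3 and 37.7 with PF, while AMPKβ1-/- libraries had 8.39, 7.70 and 6.05 CPM (vehicle) and 9.41, 9.42 and 7.90 CPM (PF), so no library went against its genotype label. All 10 of 10 macrophage markers (*Adgre1*, *Cd68*, *Itgam*, *Lyz2*, *Cd14*, *Mertk*, *Fcgr1*, *Mrc1*, *Msr1*, *Ctsd*) were tested, and their summed level ranged from 33915 to 39174 CPM in WT libraries with vehicle, from 34078 to 38676.5 in WT libraries with PF, from 29619.5 to 33460.2 in AMPKβ1-/- libraries with vehicle and from 30915 to 31348 in AMPKβ1-/- libraries with PF. Most of this sum was *Lyz2* (11793 to 17119 CPM over all libraries) and *Ctsd* (9202 to 17084). At an adjusted p below 0.05 in edgeR's quasi-likelihood test, 2 of the 10 were called for PF in WT BMDMs, where 15.9% of all genes were. Between the genotypes with vehicle 7 of the 10 were called, beside 59.7% of all genes. Of 10 granulocyte markers 6 were listed, of which 5 stayed at 7 counts or fewer in every library and *Csf3r*, itself a CSF receptor gene that macrophages also express, had 82.5 to 113 CPM. *Csf3r* was called between the genotypes with vehicle and not for PF in WT BMDMs. Dendritic cell markers (6 of 8 listed) summed to at most 1.55 CPM and erythroid, mast cell and progenitor markers (5 of 10 listed) to at most 6.08 CPM. Of 2 tested markers in the latter list, 1 (*Kit*) was called for PF in WT BMDMs. Between the genotypes with vehicle 1 of the 2 was called. Of 10 lymphoid markers 3 were listed, and *Il7r* made up nearly all of their sum with at most 88.1 CPM. The lymphoid sum was 25.4 to 41.2 CPM in WT libraries with vehicle, 60.8 to 89.5 with PF, 43.9 to 69.8 in AMPKβ1-/- libraries with vehicle and 68.2 to 84.2 with PF. By edgeR's quasi-likelihood test *Il7r* was called higher with PF than with vehicle in WT BMDMs (adjusted p = 0.00728) and higher in AMPKβ1-/- than in WT BMDMs with vehicle (adjusted p = 0.00318). The part of this sum in the results below was not tested. Fibroblast and stromal markers (9 of 10 listed) summed to at most 12.3 CPM, in 1 library of AMPKβ1-/- BMDMs with vehicle. In bulk RNA, fewer cells of a type and less RNA per cell cannot be told apart.

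One property of the libraries moved with genotype, and in part with PF, and touches the results below. The GC content of a transcript is the share of G and C bases in it, and the counts of the 12 libraries differed in how they depended on it. The slope of a gene's log2 level, relative to its mean over the libraries, on GC content was 0.34 to 0.69 per 10 percentage points in WT libraries with vehicle, −0.05 to 0.35 in WT libraries with PF, −0.34 to −0.09 in AMPKβ1-/- libraries with vehicle and −0.49 to −0.32 in AMPKβ1-/- libraries with PF. The slopes of the genotypes did not overlap, and genotype and slope cannot be told apart in this design. Within each genotype the slopes with PF reached lower than those with vehicle and overlapped them. The comparisons of PF with vehicle are therefore touched as well. Beside the fold changes, values are therefore also given from a fit in which the trend of each library with GC content and transcript length was removed. The longest transcripts of the 9 genes spanned 40.6% to 58.9% GC, where the tested genes had a median of 49.7% (quartiles 44.8% and 54.4%). In order, *Zeb2* had 40.6% GC, *Fli1* 44.5%, *Runx1* 46.4%, *Maf* 47.4%, *Csf2rb* 53.9%, *Csf1r* 54.5%, *Tyrobp* 54.8%, *Csf2ra* 57.8% and *Spi1* 58.9%.

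In the GENCODE M21 annotation of GRCm38 all 9 are protein-coding genes, and 8 of them are placed here. *Spi1* lies on the plus strand of chromosome 2 from 91082390 to 91115756 and *Zeb2* on the minus strand of the same chromosome from 44983632 to 45117395. *Runx1* spans 92601466 to 92826149 on the minus strand of chromosome 16, *Fli1* 32422204 to 32542861 on the minus strand of chromosome 9, and *Maf* 115682942 to 115707794 on the minus strand of chromosome 8. *Csf2ra* occupies 61223957 to 61228429 on the minus strand of chromosome 19, *Csf2rb* 78325752 to 78353847 on the plus strand of chromosome 15, and *Tyrobp* 30413760 to 30417585 on the plus strand of chromosome 7.

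RefSeq promoter windows (GRCm38.p6, 250 bases before the transcription start and 50 after it) were matched for 3 of the 9 genes, with 2 windows for *Runx1*, 4 for *Zeb2* and 1 for *Csf2ra*. Windows are shown for all 3 of these genes, as the other 6 had none. *Zeb2* had the largest genotype difference of the 9 on the counts as deposited. *Runx1* is a factor gene with a promoter at each of 2 distant starts. *Csf2ra* is the receptor chain that was called between the genotypes under both treatments once the GC and length trend was removed. Each window was searched on both strands for GAGGAA (reverse complement TTCCTC), the core of a PU.1 site, and for TGTGGT (reverse complement ACCACA), the core of a RUNX site. Of 32851 windows, 28.3% held the first motif and 16.8% the second. Matches are in capitals, and the sequence is that of the gene's strand from 5′ to 3′. A match describes letters in the window, not a bound site.
*Runx1*, chr16:92697280-92697579, minus strand: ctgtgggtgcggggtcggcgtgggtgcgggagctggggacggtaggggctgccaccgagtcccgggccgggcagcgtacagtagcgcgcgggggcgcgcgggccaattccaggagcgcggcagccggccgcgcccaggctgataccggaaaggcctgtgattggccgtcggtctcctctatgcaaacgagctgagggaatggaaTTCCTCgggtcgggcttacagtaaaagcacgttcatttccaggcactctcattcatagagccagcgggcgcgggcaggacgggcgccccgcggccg
*Runx1*, chr16:92826025-92826324, minus strand: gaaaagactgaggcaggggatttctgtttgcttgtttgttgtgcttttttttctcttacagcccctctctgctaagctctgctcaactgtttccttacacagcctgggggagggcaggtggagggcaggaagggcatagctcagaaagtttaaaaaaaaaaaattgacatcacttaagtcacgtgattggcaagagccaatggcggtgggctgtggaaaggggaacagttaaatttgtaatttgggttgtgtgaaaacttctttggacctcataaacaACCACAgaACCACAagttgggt
*Zeb2*, chr2:45117393-45117692, minus strand: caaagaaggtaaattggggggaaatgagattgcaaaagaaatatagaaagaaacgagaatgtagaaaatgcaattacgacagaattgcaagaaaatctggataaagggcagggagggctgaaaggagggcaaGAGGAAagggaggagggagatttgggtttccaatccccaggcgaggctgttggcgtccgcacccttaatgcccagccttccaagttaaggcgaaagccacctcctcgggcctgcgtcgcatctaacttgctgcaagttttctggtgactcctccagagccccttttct
*Csf2ra*, chr19:61228369-61228668, minus strand: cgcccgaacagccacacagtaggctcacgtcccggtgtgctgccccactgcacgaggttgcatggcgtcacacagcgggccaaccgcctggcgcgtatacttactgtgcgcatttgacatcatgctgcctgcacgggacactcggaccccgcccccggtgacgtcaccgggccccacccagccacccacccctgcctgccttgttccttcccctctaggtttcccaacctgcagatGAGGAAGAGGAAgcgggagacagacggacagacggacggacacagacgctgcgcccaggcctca
The 2 *Runx1* windows belong to its separate promoters and have unlike base composition. The one inside the gene had 69.0% GC and 35 CpG dinucleotides with a TTCCTC 46 bases before the start, whereas the one at the gene's 5′ end had 45.0% GC and 2 CpG with ACCACA at 28 and at 36 bases after the start. Over the 32851 windows the median was 52.7% GC with 7 CpG. All 4 *Zeb2* windows held the PU.1 core, and 2 of them overlap and share the same match. The *Zeb2* window shown had it 118 bases before the start. The *Csf2ra* window, with 65.3% GC and 23 CpG, had the PU.1 core at 14 and again at 8 bases before the start.

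Levels between genes were compared per kb of the longest annotated transcript. In WT libraries with vehicle *Tyrobp* had the highest level of the 9 with 1932 ± 287 CPM per kb (SD, n = 3) and rank 23 among 10790 genes, followed by *Csf1r* with 1568 ± 156 CPM per kb and rank 34. Their libraries overlapped, so these neighbours did not differ beyond their spread. *Spi1* came next with 494 ± 30.4 CPM per kb and rank 127, below every library of *Csf1r*. The GM-CSF receptor chains followed with 114 ± 12.2 CPM per kb for *Csf2rb* and 99.1 ± 10.3 for *Csf2ra*. Their ranges overlapped between libraries, but within each library *Csf2rb* was higher (109.5 against 92.3, 104.9 against 94.0 and 128.0 against 111.0). *Maf* stood alone at 29.4 ± 1.27 CPM per kb. *Fli1* (10.1 ± 1.38), *Zeb2* (9.98 ± 2.16) and *Runx1* (9.28 ± 1.70) shared the lowest place with overlapping libraries, at ranks 4755 to 4945, near the middle of the tested genes. In AMPKβ1-/- libraries the first 6 places were the same, whereas the lowest 3 separated into *Zeb2*, *Fli1* and *Runx1*, with no overlap between neighbours. With PF in that genotype they stood at 37.6 ± 5.28, 19.95 ± 1.11 and 14.6 ± 1.05 CPM per kb. In every group *Tyrobp*, *Csf1r* and *Spi1* ranked within the first 160 of 10790 genes. The order depends on the length used. With the mean length of all annotated transcripts, *Csf1r* had a level of 3607 CPM per kb and *Tyrobp* 1993 in WT libraries with vehicle, and *Zeb2* moved above *Maf* in all 4 groups.

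**Figure D1:**
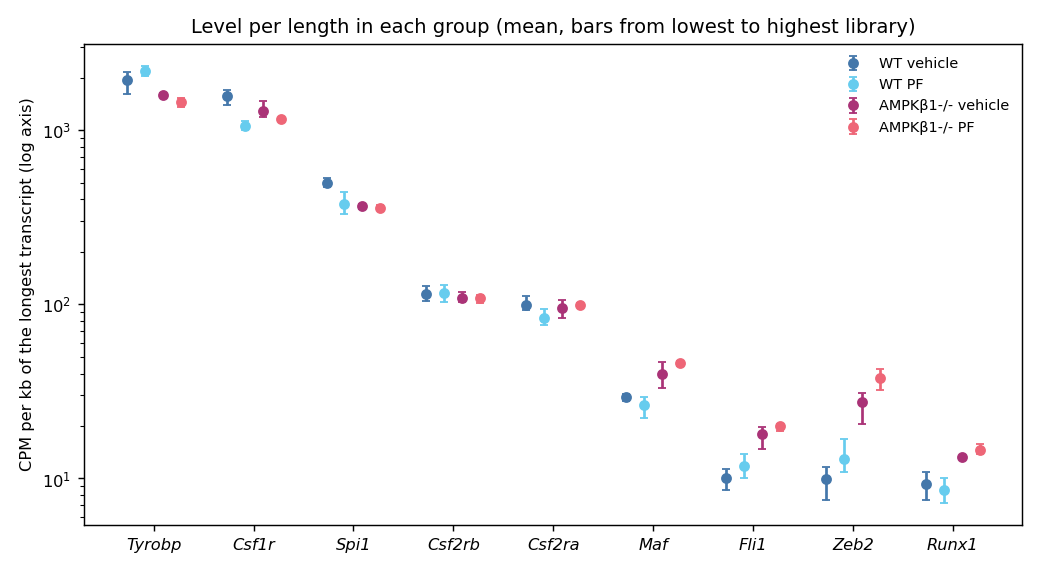
Level of each gene in CPM per kb of the longest transcript on a log axis, as the mean of 3 libraries with bars from the lowest to the highest library, coloured by group. *Tyrobp*, *Csf1r* and *Spi1* sit at 356 to 2171 CPM per kb in every group, while *Fli1*, *Zeb2* and *Runx1* sit at 8.56 to 37.6, with the AMPKβ1-/- groups above the WT groups.

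The first comparison asked whether PF changed these genes in WT BMDMs. *Csf1r* and *Spi1* were lower with PF, by 33.0% and 23.4%, and the other 7 genes did not pass the test. A gene was called at a Benjamini-Hochberg adjusted p below 0.05 in edgeR's quasi-likelihood test over all 10822 genes. Of the 9 genes 0 were called higher and 2 lower, where 15.9% of all tested genes were called, 6.99% higher and 8.95% lower, so 2 of 9 is close to the share in the whole table. With library size alone the counts were 0 and 2 again, while those of all genes went from 756 higher and 969 lower to 1045 and 587. Their median log2 fold change was −0.12, with a range of −0.58 to 0.38, and the median over all genes was 0.00483. Differentially expressed genes (DEGs) by the study's thresholds need in addition a log2 fold change above 0.8 or below −0.8. Of the 9, 0 were DEGs, where 1.16% of all genes were DEGs with a rise and 0.37% with a fall. The thresholds were applied here to edgeR's test, whereas the study used DESeq2, so these shares are not the study's own.

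*Csf1r*, the receptor for the CSF1 of the differentiation medium, had 7643, 6541 and 7931 CPM in WT libraries with vehicle and 5277, 4826 and 4709 with PF. Every library with PF was below every library with vehicle. The log2 fold change was −0.58 (SE 0.09, 95% interval −0.78 to −0.38, adjusted p = 0.00207), and 79 genes of the table had a smaller p. With the GC and length trend removed it was −0.38 ± 0.05 (SE, adjusted p = 0.000323), and it was called again, as 7.12% of all genes were in that fit. Without any 1 of the 12 libraries it lay between −0.66 and −0.52 (adjusted p 0.000958 to 0.0173). The transcript took 0.614% to 0.731% of all counts of a WT library with vehicle and 0.467% to 0.494% with PF.

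*Spi1* had 1076, 963 and 977 CPM with vehicle and 896, 742 and 670 CPM with PF, again without overlap, although library 1 with PF came within 66.2 CPM of the lowest vehicle library. The log2 fold change was −0.39 (SE 0.09, 95% interval −0.58 to −0.19, adjusted p = 0.0163). This call was less steady than that of *Csf1r*. It was lost without library 1 of WT with vehicle (adjusted p = 0.0622), library 2 of WT with PF (0.0701) or library 3 of WT with PF (0.0907), and when only WT libraries entered the fit (0.0787). With the GC and length trend removed the log2 fold change was −0.15 (adjusted p = 0.0941). *Csf1r* and *Spi1* were the 2 of the 9 whose libraries with PF and with vehicle did not overlap, where this held for 32.2% of all genes, 18.1% in the lower direction.

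Neither GM-CSF receptor chain passed the test. *Csf2ra* had 210, 214 and 253 CPM with vehicle and 213, 184 and 174 with PF, a log2 fold change of −0.25 (95% interval −0.46 to −0.03, adjusted p = 0.0978). Library 1 with PF lay among the vehicle libraries, and without it the log2 fold change was −0.33 and passed the test (adjusted p = 0.0246). With the trend removed the value was −0.00102. *Csf2rb* had 537, 514 and 627 CPM with vehicle and 636, 508 and 563 with PF, with a log2 fold change of 0.02 (95% interval −0.18 to 0.23, adjusted p = 0.871), or 0.21 with the trend removed (adjusted p = 0.0549).

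Counts of *Csf2rb* need one reservation. Its mouse sister gene *Csf2rb2* encodes a β chain used by the IL-3 receptor, and 28.0% of the stretches of 31 bases in the longest *Csf2rb* transcript also occur in *Csf2rb2*, so an estimated count could be shared out differently between them. For the other 8 genes at most 0.574% of such stretches were shared with any other gene. The counts of both genes added together gave log2 fold changes of −0.12 to −0.00868 over the 5 contrasts, none of which passed the test, and this sum was added after the data were seen.

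The 4 remaining factors and the adaptor did not pass the test with PF in WT BMDMs. *Runx1* had 43.8, 55.7 and 63.7 CPM with vehicle and 42.4, 48.9 and 59.2 with PF (log2 fold change −0.12, 95% interval −0.40 to 0.16). *Fli1* had 28.4, 37.4 and 34.6 CPM with vehicle and 33.4, 38.2 and 46.1 with PF (0.23, −0.07 to 0.53). *Maf* had 178, 193 and 189 CPM with vehicle and 142, 178 and 187 with PF (−0.15, −0.40 to 0.10). In these 3 genes the libraries of both treatments were interleaved. *Zeb2* had 68.7, 106 and 98.4 CPM with vehicle and 98.8, 102 and 154 with PF (0.38, −0.08 to 0.84), the widest interval of the 9, with only library 3 with PF above all vehicle libraries. *Tyrobp* had 1285, 1215 and 959 CPM with vehicle and 1220.4, 1395 and 1273 with PF (0.17, −0.04 to 0.37), where library 3 of the vehicle group stood low. Their adjusted p ranged from 0.217 to 0.535. Once the trend was removed the values were −0.27 for *Runx1* (adjusted p = 0.0538), −0.059 for *Fli1* (0.728), −0.24 for *Maf* (0.112), −0.020 for *Zeb2* (0.923) and 0.17 for *Tyrobp* (0.122).

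**Figure D2:**
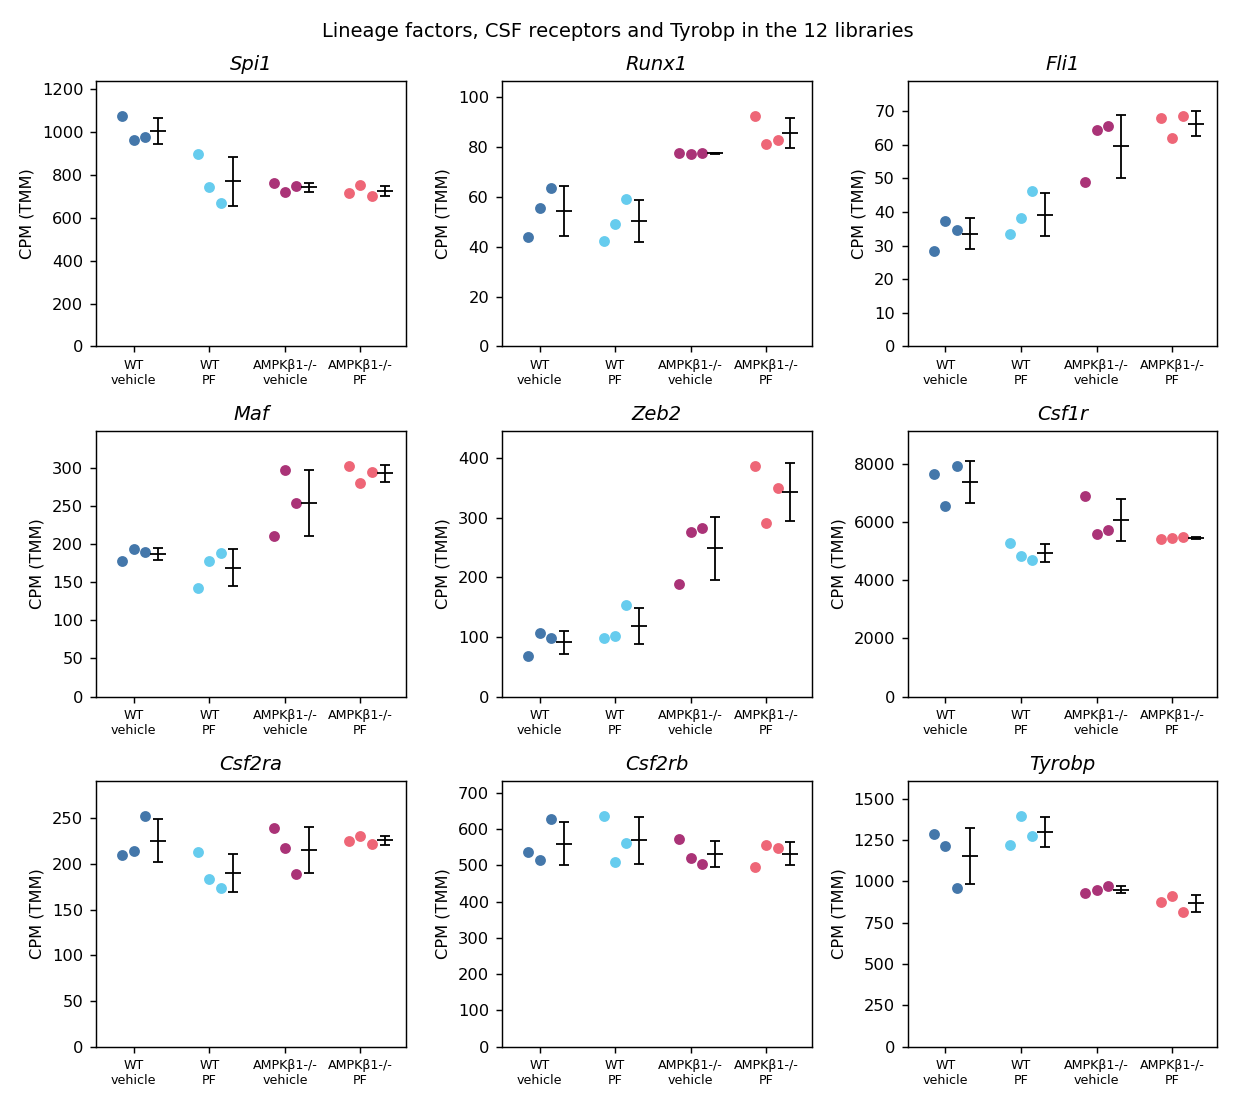
CPM of each gene in the 12 libraries (points), with the mean and SD of the 3 libraries of a group beside them, on linear axes from 0. In *Csf1r* and *Spi1* the WT libraries with PF sit below the WT libraries with vehicle, and in *Zeb2*, *Fli1*, *Runx1* and *Maf* all 6 AMPKβ1-/- libraries sit above all 6 WT libraries.

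The second comparison asked whether PF changed the genes where AMPKβ1 was missing. Of the 9 genes 0 were called in either direction, where 0.0554% of all tested genes were called (6 higher and 0 lower), so 0 of 9 is no result about these genes in particular. At an unadjusted p below 0.05 there was 1 of the 9 and 4.98% of all genes, and DESeq2 called 47 genes higher and 1 lower, with 0 of the 9 among them. The median log2 fold change of the 9 was 0.07, against −0.00400 for all genes. The largest was that of *Zeb2*, which had 188, 277 and 282 CPM with vehicle and 388, 292 and 350 with PF (log2 fold change 0.46, 95% interval 0.02 to 0.91, adjusted p = 0.974). Its libraries did not overlap, and library 1 with vehicle stood below the other AMPKβ1-/- libraries.

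*Csf1r* had 6884, 5589 and 5721 CPM in AMPKβ1-/- vehicle libraries and 5419, 5466 and 5484 in the PF libraries, a log2 fold change of −0.15 (95% interval −0.35 to 0.05, adjusted p = 0.982). The PF libraries were all below the vehicle libraries, by 105 CPM at the closest, and library 1 with vehicle stood above the rest. *Spi1* had 761, 719 and 749 CPM with vehicle and 717, 751 and 704 with PF (−0.04, −0.23 to 0.16, adjusted p = 0.985). Those 6 libraries were interleaved. The libraries did not overlap in 4 of the 9 genes (*Zeb2* and *Runx1* higher, *Csf1r* and *Tyrobp* lower with PF), where this held for 14.5% of all genes, 8.21% higher and 6.28% lower, and none of the 4 passed the test.

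The difference between the PF responses of the genotypes was tested directly as an interaction (WT minus AMPKβ1-/-). Of the 9 genes 0 were called, where 0.416% of all genes were, 0.176% higher and 0.24% lower, while 4 of the 9 and 14.3% of all genes had an unadjusted p below 0.05. DESeq2 called 68 genes higher and 111 lower in the whole table. For *Csf1r* the interaction was −0.43 on the log2 scale (SE 0.13, 95% interval −0.71 to −0.15, adjusted p = 0.171). For *Spi1* it was −0.35 (SE 0.13, −0.63 to −0.07, adjusted p = 0.251), and without library 1 of WT with PF it was −0.47 and passed (adjusted p = 0.0333). *Csf2ra* (−0.31, adjusted p = 0.336) and *Tyrobp* (0.30, adjusted p = 0.338) were the other 2. With the trend removed the interaction was −0.26 for *Csf1r* (adjusted p = 0.113), −0.41 for *Maf* (0.127), −0.36 for *Runx1* (0.147), −0.15 for *Spi1* (0.378), −0.12 for *Csf2ra* (0.708) and 0.19 for *Tyrobp* (0.372). In that fit the values for PF in AMPKβ1-/- BMDMs lay between −0.11 for *Csf1r* (adjusted p = 0.737) and 0.18 for *Zeb2* (0.680). The lower *Csf1r* and *Spi1* levels with PF in WT BMDMs are therefore not shown to differ from the response of AMPKβ1-/- BMDMs.

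The third comparison set AMPKβ1-/- against WT BMDMs with vehicle, and it shares the WT vehicle libraries with the first. The factors *Zeb2*, *Fli1*, *Runx1* and *Maf* were higher in AMPKβ1-/- BMDMs, by 173%, 77.6%, 42.2% and 35.7%, whereas *Spi1*, *Csf1r* and *Tyrobp* were lower, by 26.1%, 17.7% and 17.6%. The GM-CSF receptor chains did not pass the test. Of the 9 genes 4 were called higher and 3 lower, where 59.7% of all genes were called, 29.7% higher and 30% lower, so 7 of 9 is not far from the share in the whole table. Scaling by library size alone, which raised the median log2 fold change of all genes by 0.21, gave 4 higher and 1 lower (*Spi1*) of the 9 and 4296 higher and 1600 lower of all genes, in place of 3216 and 3249. The median log2 fold change of the 9 was −0.07 and that of all genes −0.03. The 4 higher genes are the 4 of lowest GC content and the 3 lower genes are among the 5 of highest GC content.

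*Zeb2* had 68.7, 106 and 98.4 CPM in WT and 188, 277 and 282 in AMPKβ1-/- libraries, a log2 fold change of 1.45 (SE 0.21, 95% interval 0.99 to 1.91, adjusted p = 0.000175). The lowest AMPKβ1-/- library had 1.78 times the level of the highest WT library. *Fli1* had 28.4, 37.4 and 34.6 CPM against 48.8, 64.2 and 65.6, a log2 fold change of 0.83 (SE 0.14, 0.53 to 1.12, adjusted p = 0.000217). Library 1 of the AMPKβ1-/- group stood low in both genes without reaching the WT range. These were the 2 DEGs among the 9, where 16.1% of all genes were DEGs with a rise and 1.76% with a fall.

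*Runx1* had 43.8, 55.7 and 63.7 CPM in WT and 77.6, 77.3 and 77.4 in AMPKβ1-/- libraries (log2 fold change 0.51, SE 0.13, adjusted p = 0.00367). The AMPKβ1-/- libraries agreed within 0.304 CPM, while the WT libraries spread over 19.9 CPM. *Maf* had 178, 193 and 189 CPM against 210, 297 and 254 (0.44, SE 0.12, adjusted p = 0.00467), with library 1 of AMPKβ1-/- close above the WT range. Among the lower genes, *Spi1* had 1076, 963 and 977 CPM against 761, 719 and 749 (−0.44, SE 0.09, adjusted p = 0.00103), without overlap.

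*Csf1r* and *Tyrobp* did overlap between the genotypes with vehicle. *Csf1r* had 7643, 6541 and 7931 CPM in WT against 6884, 5589 and 5721 (log2 fold change −0.28, 95% interval −0.48 to −0.08, adjusted p = 0.0171), and the call was lost without library 3 of WT or library 2 or 3 of AMPKβ1-/- (adjusted p 0.0663 to 0.0901). *Tyrobp* had 1285, 1215 and 959 CPM against 929, 948 and 972 (−0.28, −0.49 to −0.07, adjusted p = 0.0213), with WT library 3 inside the AMPKβ1-/- range. Its call was lost without WT library 1 or 2 or AMPKβ1-/- library 1 or 2 (adjusted p 0.0521 to 0.108). *Csf2ra* had 239, 217 and 190 CPM in AMPKβ1-/- libraries with vehicle (−0.07, −0.28 to 0.15, adjusted p = 0.589), interleaved with WT. *Csf2rb* had 573, 519 and 504 CPM there (−0.07, −0.28 to 0.13, adjusted p = 0.535), also interleaved. Libraries did not overlap in 5 of the 9 genes, where this held for 62.9% of all genes.

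Most of these calls were lost once the trend with GC content was taken out. With the GC and length trend removed, 2 of the 9 genes were called, both higher in AMPKβ1-/- BMDMs, where 36.5% of all genes were called, 15.1% higher and 21.4% lower. They were *Fli1* (log2 fold change 0.35 ± 0.08, SE, adjusted p = 0.00239) and *Csf2ra* (0.37 ± 0.07, adjusted p = 0.00101), which the counts as deposited had left uncalled. *Zeb2* went from 1.45 to 0.11 (adjusted p = 0.305), *Runx1* from 0.51 to 0.07 (0.520) and *Maf* from 0.44 to 0.08 (0.476). *Spi1* went from −0.44 to 0.02 (0.749), *Tyrobp* from −0.28 to 0.09 (0.266) and *Csf1r* from −0.28 to −0.08 (0.264).

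**Figure D3:**
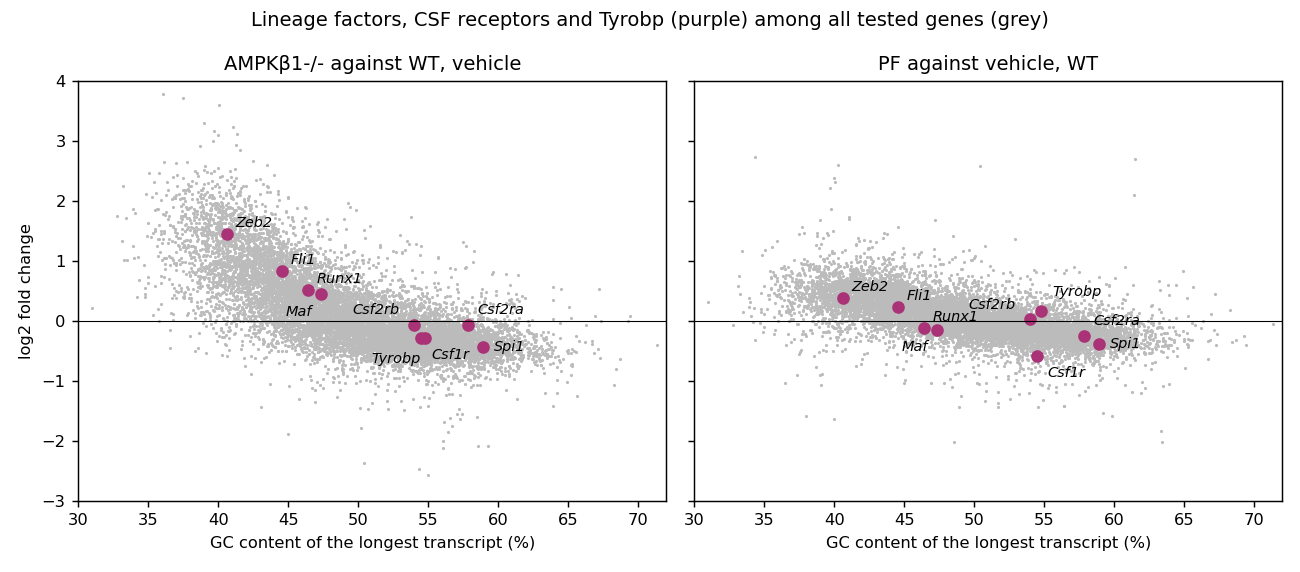
Log2 fold change of each tested gene (grey) and of the 9 genes (purple) against the GC content of the longest transcript, for AMPKβ1-/- against WT with vehicle (left) and PF against vehicle in WT BMDMs (right). On the left the 9 genes descend with the grey cloud from *Zeb2* at 40.6% GC and 1.45 to *Spi1* at 58.9% GC and −0.44, and on the right *Csf1r* at −0.58 lies at the lower edge of the cloud.

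The fourth comparison set the genotypes side by side with PF, and it shares its libraries with the first and second. The 4 factor genes other than *Spi1* were called higher in AMPKβ1-/- BMDMs, *Zeb2* by 189%, *Maf* by 73.0%, *Runx1* by 70.1% and *Fli1* by 68.4%, and *Tyrobp* was lower by 33.1%. The counts were 4 higher and 1 lower of 9, where 47.1% of all genes were called, 24.1% higher and 22.9% lower, so 5 of 9 is near the share in the whole table. Library size alone, with a median raised by 0.15, gave 6 higher (*Csf1r* and *Csf2ra* in addition) and 1 lower of the 9, and 3444 higher and 1359 lower of all genes in place of 2613 and 2481. The median log2 fold change of the 9 was 0.25 against −0.00124 for all genes.

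*Zeb2* had 98.8, 102 and 154 CPM in WT and 388, 292 and 350 in AMPKβ1-/- libraries with PF (log2 fold change 1.53, SE 0.21, adjusted p = 0.000136). *Maf* had 142, 178 and 187 CPM against 302, 280 and 295 (0.79, SE 0.12, adjusted p = 0.000111). *Runx1* had 42.4, 48.9 and 59.2 CPM against 92.5, 81.3 and 82.7 (0.77, SE 0.13, adjusted p = 0.000305). All 3 genes were separated by wide gaps between the genotypes. *Fli1* had 33.4, 38.2 and 46.1 CPM against 68.0, 62.0 and 68.6 (0.75, SE 0.14, adjusted p = 0.000501). *Tyrobp*, the adaptor, had 1220.4, 1395 and 1273 CPM against 878, 912 and 812 (−0.58, SE 0.10, adjusted p = 0.000278). Its libraries did not overlap here, unlike with vehicle.

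*Spi1* and *Csf1r*, which were lower in AMPKβ1-/- BMDMs with vehicle, were not called with PF. *Spi1* had 896, 742 and 670 CPM in WT against 717, 751 and 704 (log2 fold change −0.09, 95% interval −0.29 to 0.11, adjusted p = 0.454), with the AMPKβ1-/- libraries inside the WT range. *Csf1r* had 5277, 4826 and 4709 CPM against 5419, 5466 and 5484 (0.14, −0.05 to 0.34, adjusted p = 0.219), without overlap but 143 CPM apart at the closest. *Csf2ra* had 213, 184 and 174 CPM against 225, 231 and 221 (0.25, 0.03 to 0.46, adjusted p = 0.0541), also without overlap. *Csf2rb* had 636, 508 and 563 CPM against 496, 555 and 546 (−0.10, −0.30 to 0.11, adjusted p = 0.434), interleaved. Libraries did not overlap in 7 of the 9 genes, 6 higher and 1 lower, where this held for 59.9% of all genes, 29.9% higher and 30% lower.

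With the GC and length trend removed, 7 of the 9 genes were called higher in AMPKβ1-/- BMDMs with PF and 0 lower, where 39.4% of all genes were called, 16.7% higher and 22.7% lower. The log2 fold changes were 0.49 for *Maf* (adjusted p = 0.000300), 0.49 for *Fli1* (8.93e-05), 0.49 for *Csf2ra* (7.50e-05), 0.43 for *Runx1* (0.000400), 0.31 for *Zeb2* (0.00484), 0.18 for *Csf1r* (0.0122) and 0.18 for *Spi1* (0.0109). *Tyrobp* was at −0.10 (0.227) and *Csf2rb* at −0.09 (0.289). *Fli1* was thus the factor gene, and *Csf2ra* the receptor gene, that was called higher in AMPKβ1-/- BMDMs under both treatments with the trend removed.

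**Figure D4:**
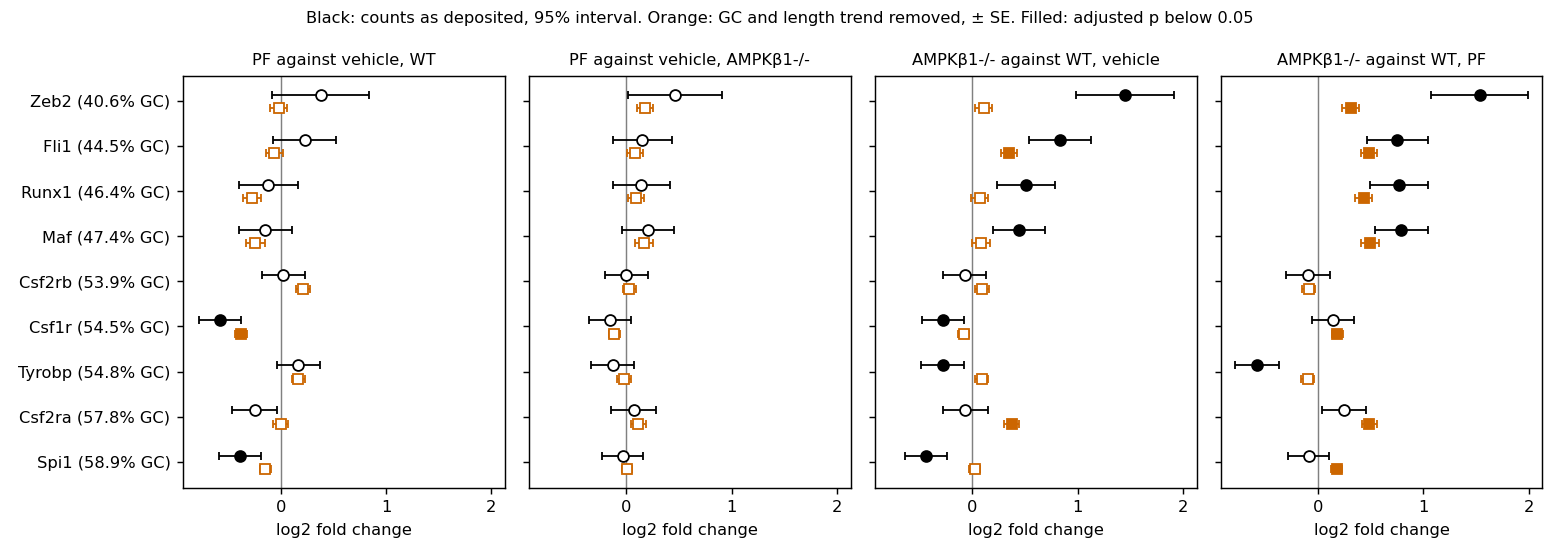
Log2 fold changes of the 9 genes, ordered by GC content, in the 4 contrasts, from the counts as deposited (black circles, 95% interval) and after removal of the GC and length trend (orange squares, ± SE), filled where the adjusted p is below 0.05. In AMPKβ1-/- against WT with vehicle the black values run from 1.45 in *Zeb2* to −0.44 in *Spi1*, while the orange values lie between −0.08 and 0.37.

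The spread between replicate libraries differed among the genes. The biological coefficient of variation that edgeR fitted was 8.40% for *Csf1r*, 8.41% for *Spi1*, 8.73% for *Csf2rb*, 8.76% for *Tyrobp*, 9.0% for *Csf2ra*, 10.3% for *Maf*, 11.0% for *Runx1*, 11.5% for *Fli1* and 17.8% for *Zeb2*, where the median of all tested genes was 9.66%. Over the 12 libraries *Zeb2* ranged 5.64-fold from the lowest to the highest and *Csf2rb* 1.28-fold.

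By Pearson's r of log2 CPM over the 12 libraries, which share depth and the GC slope described above, the nearest genes in pattern mostly had a similar GC content. For *Zeb2* (40.6% GC) they were *Qk* (r = 0.997, 41.1% GC) and *Tmx3* (0.996, 35.3%), and for *Fli1* (44.5%) they were *Cul4b* (0.996, 41.0%) and *Itch* (0.995, 42.1%). For *Runx1* they were *Plagl2* (0.981) and *Rnd3* (0.980), and for *Maf* *Klf3* (0.979) and *Zfp36l1* (0.975). For *Spi1* (58.9%) they were *Slc25a10* (0.994, 60.6%) and *Twf2* (0.985, 57.0%), and for *Csf1r* (54.5%) *Pbxip1* (0.989, 56.1%) and *Flna* (0.985, 54.0%). For *Csf2ra* they were *Zfp276* (0.953) and *Bahd1* (0.918), for *Tyrobp* *Hint1* (0.989), and for *Csf2rb* its sister gene *Csf2rb2* (0.901) and *Cdk16* (0.857). These are descriptions of 12 points in 4 groups.

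The genes around the 9 in their pathways were taken from lists written from general knowledge, with earlier results of these data known. Of 28 genes for CSF ligands, sister receptors and signalling 22 were tested. With PF in WT BMDMs 2 of them rose and 5 fell, where 6.99% of all genes were called higher and 8.95% lower. Their median log2 fold change was −0.12 against 0.00483 for all genes. *Kit*, the receptor for stem cell factor and a relative of *Csf1r*, is also among the progenitor markers above. It rose by 1.42 on the log2 scale from a trace level (0.424 to 4.02 CPM over all libraries, adjusted p = 0.00506). *Cblb*, a ubiquitin ligase of the family that marks CSF1R for degradation, rose by 0.25 (adjusted p = 0.0442). *Inpp5d*, which encodes the phosphatase SHIP1, changed by −0.41 (adjusted p = 0.00773), *Plcg2* by −0.34 (0.0238) and *Stat3* by −0.31 (0.0338). *Kit* (1.39) and *Inpp5d* (−0.23) were called again with the GC and length trend removed, in a fit that called 7.12% of all genes. In AMPKβ1-/- against WT BMDMs with vehicle 4 were higher and 12 lower, and with PF 5 were higher and 7 lower. These are 16 and 12 of 22, where 59.7% of all genes were called with vehicle (29.7% higher and 30% lower) and 47.1% with PF (24.1% higher and 22.9% lower). With the trend removed 7 of the 16 and 8 of the 12 were called in the same direction. That fit called 36.5% of all genes with vehicle and 39.4% with PF. How many calls of all genes kept their direction was not counted, here or for the lists below. *Jak2*, the kinase of the GM-CSF receptor, was higher at 1.24 with vehicle (0.57 with the trend removed) and 0.86 with PF (0.40). *Sos1*, an exchange factor for RAS, was higher at 0.89 with vehicle and 0.77 with PF but was called lower with the trend removed (−0.38 in both, adjusted p = 0.0142 and 0.00984). *Pik3r1*, a regulatory subunit of PI3 kinase, was higher at 0.89 and 0.78 and was not called with the trend removed (0.17 and 0.21). The receptor gene *Il3ra* was lower at −0.84 with vehicle (−0.38 with the trend removed) and −0.58 with PF (−0.36). *Cblb* was lower at −0.51 with vehicle and −0.72 with PF (−0.97 and −1.10 with the trend removed), *Pik3cd*, a catalytic subunit of PI3 kinase, at −0.48 with vehicle (−0.24) and *Kit* at −2.05 with PF (−2.18).

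Of 34 relatives and partners of the 5 factors 28 were tested. With PF in WT BMDMs 2 rose and 5 fell (median 0.00 against 0.00483 for all genes), beside 6.99% and 8.95% of all genes. *Id2*, an inhibitor of helix-loop-helix factors, rose by 0.66 (adjusted p = 0.00802), and *Cbfb*, the partner subunit of RUNX1, rose by 0.46 (0.0389). *Etv6*, an ETS repressor, changed by −0.42 (0.0149), *Tfe3* by −0.35 (0.0173) and *Elf4*, another ETS gene, by −0.38 (0.0200). Of these 7, 4 were called in the same direction with the trend removed, while *Cbfb* (0.079, adjusted p = 0.538) and *Tfe3* (−0.21, 0.0775) were not called. That fit called 7.12% of all genes. In AMPKβ1-/- against WT BMDMs 11 were higher and 5 lower with vehicle, and with PF 9 were higher and 4 lower. These are 16 and 13 of 28, beside the shares of all genes of 59.7% and 47.1%. With the trend removed 10 of the 16 and 11 of the 13 were called in the same direction. That fit called 36.5% and 39.4% of all genes. *Cbfb* was higher by 1.09 with vehicle and 0.79 with PF (0.36 and 0.29 with the trend removed), and *Mitf* by 1.25 and 1.00 (0.47 and 0.44). *Gabpa*, an ETS gene, was higher by 1.34 with vehicle and 1.56 with PF. With the trend removed it was called with PF (0.73) but not with vehicle (0.32, adjusted p = 0.0622). *Irf8*, the partner of PU.1 in myeloid cells, was lower at −0.59 and −0.36 (−0.38 and −0.22). *Lyl1*, a helix-loop-helix factor gene, was lower at −0.55 and −0.44, and with the trend removed it was called with PF (−0.19) but not with vehicle (−0.087, adjusted p = 0.192). *Tfe3* was lower at −0.40 with vehicle (−0.43 with the trend removed) and *Mafk*, a small MAF gene, at −0.55 with PF (−0.35).

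For the adaptor, 18 of 23 partner receptors and signalling genes of TYROBP were tested. With PF in WT BMDMs 1 rose (*Malt1*, 0.76, adjusted p = 0.0223) and 3 fell (*Card9*, −0.35, *Vav1*, −0.26, and *Lcp2*, −0.27), with adjusted p from 0.0412 to 0.0476 for those 3. The median was −0.12 against 0.00483, and 6.99% of all genes were called higher and 8.95% lower. With the trend removed 1 of the 4 was called in the same direction (*Lcp2*, −0.41), while *Malt1* (0.36), *Card9* (−0.14) and *Vav1* (−0.074) were not called. That fit called 7.12% of all genes. In AMPKβ1-/- against WT BMDMs 5 were higher and 9 lower with vehicle, and 6 were higher and 5 lower with PF. These are 14 and 11 of 18, beside 59.7% and 47.1% of all genes. With the trend removed 6 of the 14 and 7 of the 11 were called in the same direction. That fit called 36.5% and 39.4% of all genes. *Trem2*, the partner receptor of TYROBP best known in macrophages, was lower in AMPKβ1-/- BMDMs with vehicle (−0.55, adjusted p = 0.000186, and −0.50 with the trend removed). *Fcer1g*, the related adaptor of Fc receptors, was lower at −0.63 with vehicle and −0.77 with PF (−0.36 and −0.34 with the trend removed), and *Blnk*, a signalling adaptor, at −0.55 and −0.42 (−0.96 and −0.67). *Treml2* was lower at −1.48 with PF (−1.39), at a low level of 1.12 to 8.76 CPM over all libraries. *Malt1*, a protease of NF-κB signalling, was higher by 1.36 with vehicle and 0.83 with PF, but with the trend removed it was not called with vehicle (−0.23, adjusted p = 0.174) and was called lower with PF (−0.88, 1.29e-05). *Clec5a*, a receptor that pairs with TYROBP at 1.60 to 12.4 CPM over all libraries, was higher by 1.43 with vehicle. It was not called with the trend removed (0.31, adjusted p = 0.373). *Cd300ld* was higher by 0.43 and 0.67 (0.28 and 0.65 with the trend removed). *Pilrb1* was higher by 1.26 with PF (1.43), from a trace level of 0.846 to 4.56 CPM over all libraries. *Tyrobp* itself was called with neither treatment once the trend was removed.

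All 16 of 16 textbook PU.1 targets were tested, beside *Csf1r*. With PF in WT BMDMs 0 rose and 3 fell (median −0.08 against 0.00483 for all genes), beside 6.99% and 8.95% of all genes. The 3 lower genes were *Cd14*, the LPS co-receptor (−0.43, adjusted p = 0.00664), *Itgam*, the αM integrin (−0.39, 0.00947), and *Ncf1*, an NADPH oxidase subunit (−0.36, 0.0137). All 3 were called lower again with the trend removed, in a fit that called 7.12% of all genes. In AMPKβ1-/- against WT BMDMs with vehicle 5 were higher and 7 lower, and with PF 6 were higher and 4 lower. These are 12 and 10 of 16, beside 59.7% and 47.1% of all genes. With the trend removed 5 of the 12 and 7 of the 10 were called in the same direction. That fit called 36.5% and 39.4% of all genes. *Tlr4*, the LPS receptor, was higher by 1.72 with vehicle and 1.63 with PF (0.61 and 0.66 with the trend removed). *Msr1*, a scavenger receptor, was higher by 1.23 and 1.25 and was not called with the trend removed (0.077 and 0.18). *Cybb*, the catalytic subunit of the NADPH oxidase, was higher by 0.70 with vehicle but was called lower with the trend removed (−0.19, adjusted p = 0.0126). *Itgam* was higher by 0.67 with PF (0.63). *Cd68* was lower at −0.72 and −0.64 (−0.39 and −0.31), *Fcgr3* at −0.58 and −0.60 (−0.44 and −0.34), and *Ctsk*, cathepsin K, at −0.72 and −1.14 (−0.61 and −0.92). In none of the 4 lists was a gene called for PF in AMPKβ1-/- BMDMs or for the interaction by edgeR's quasi-likelihood test on the counts as deposited. Of all genes only 0.0554% and 0.416% were called there, so this is no result about these lists in particular. With the trend removed, 1 gene of the TYROBP list and 1 PU.1 target were called lower for the interaction, where 83 of all genes were.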

How the data were processed

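RNA sequencing of BMDMs gave 12 libraries, 3 for each genotype and treatment. Reads were trimmed (Trim Galore) and transcripts quantified (Salmon) by the authors, who tested genes with DESeq2. The deposited values are estimated counts per gene, whole numbers without normalization, for 12960 genes. Genome build, Salmon version and low-count filter are not given in the sources used here. Columns were assigned to groups by their names, and their numbers 1 to 3 only name libraries. Of 12 pairs of replicate libraries 0 were identical, with chi-square per degree of freedom of their counts from 2.19 to 18.5.

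Counts were tested in R 4.3.3 with edgeR 4.0.16 (TMM, filterByExpr by group, robust quasi-likelihood test), as a model of 4 group means over all 12 libraries, with Benjamini-Hochberg adjustment over 10822 genes. The code was tested on simulated data. SE are approximate, the absolute log2 fold change divided by the square root of F. GC content, length and positions came from GENCODE M21 (GRCm38), where the current symbol matched 12703 genes, older symbols matched 200 and 57 had no match, so 99.7% of tested genes had a value. The trend of each library with both was fitted with natural splines (5 degrees of freedom) and given to edgeR as an offset. Log2 CPM used a prior count of 2. Counting floors were 3 counts per library and cover counting error only.

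The text names the 9 genes, *Prkab1*, markers, for each pathway list and contrast up to 3 called genes with the smallest p in each direction, and for each of the 9 the 2 genes with the highest Pearson correlation. Some results under this rule are not reported here. The genes and the lists were chosen with earlier results of these data known. Alternatives were DESeq2's size factors or library size alone, an absent low-count filter or a minimum of 10 counts in each library, DESeq2 1.42.0, the GC and length offset, only the libraries of a contrast, each library left out, another transcript length and, added after the data were seen, the summed counts of *Csf2rb* and *Csf2rb2*.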

Additional observations from a re-analysis of the deposited data

How the results depend on the processing

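With the GC and length trend removed, the counts among the 9 genes became 1 lower (*Csf1r*) for PF in WT BMDMs, 2 higher and 0 lower for AMPKβ1-/- against WT with vehicle, and 7 higher and 0 lower with PF. Over all genes that setting gave 337 higher and 434 lower for PF in WT, 3 and 1 for PF in AMPKβ1-/-, and 71 and 83 for the interaction. Between the genotypes it gave 1630 higher and 2316 lower of all genes with vehicle, and 1805 higher and 2454 lower with PF. Directions turned in *Zeb2* (−0.020) and *Fli1* (−0.059) for PF in WT, *Spi1* (0.00592) for PF in AMPKβ1-/-, *Fli1* (−0.14) for the interaction, *Spi1* (0.024), *Csf2ra* (0.37), *Csf2rb* (0.095) and *Tyrobp* (0.092) between genotypes with vehicle, and *Spi1* (0.18) with PF. The shares of GC bias and of genotype or PF in these values cannot be told apart.

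Library size alone left 1 of the 9 lower with vehicle (*Spi1*), gave 1600 genes lower with vehicle, 1359 lower with PF, 587 lower for PF in WT and 0 higher for PF in AMPKβ1-/-, and turned *Csf2ra* (0.14) and *Csf2rb* (0.14) with vehicle and *Spi1* (0.064) and *Csf2rb* (0.055) with PF. Fitting each contrast on its own libraries left 1 of the 9 lower for PF in WT (*Csf1r*) and 1 lower between genotypes with vehicle. Of all genes it gave 2839 lower between genotypes with vehicle, and 210 higher and 209 lower for PF in WT. For PF in AMPKβ1-/- it gave 58 higher and 4 lower and turned *Csf2rb* (−0.00314). DESeq2 gave 47 and 1 genes for PF in AMPKβ1-/- and 68 and 111 for the interaction, and at least 10 counts in every library gave 0 higher for PF in AMPKβ1-/-. The summed *Csf2rb* and *Csf2rb2* counts turned *Csf2rb* for PF in WT (−0.020), PF in AMPKβ1-/- (−0.012) and the interaction (−0.00868).

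With 1 library left out, 1 to 3 of the 9 were lower for PF in WT, 1 to 3 lower between genotypes with vehicle, and 0 to 1 lower for the interaction. Over all genes the counts ranged from 129 to 1622 higher and 217 to 1621 lower for PF in WT, 0 to 18 higher for PF in AMPKβ1-/-, and 3 to 133 higher and 2 to 151 lower for the interaction. Between genotypes with vehicle, 2598 to 3341 of all genes were lower. Directions turned without a library only in uncalled log2 fold changes, whose ranges were −0.063 to 0.11 for *Csf2rb* and −0.25 to 0.011 for *Runx1* (PF in WT), −0.015 to 0.15 for *Csf2ra* and −0.036 to 0.057 for *Csf2rb* (PF in AMPKβ1-/-), −0.15 to 0.022 for *Csf2ra* and −0.13 to 0.017 for *Csf2rb* (genotypes with vehicle), −0.18 to 0.036 for *Spi1* (genotypes with PF), and −0.064 to 0.11 for *Csf2rb*, −0.32 to 0.083 for *Zeb2* and −0.056 to 0.20 for *Fli1* (interaction). *Csf2ra* passed the test between genotypes with PF (log2 fold change 0.25, adjusted p = 0.0541 in edgeR) under DESeq2 (adjusted p = 0.0360), DESeq2's size factors (0.0403), a minimum of 10 counts (0.0389), the contrast's own libraries (0.0316), library size alone (0.00496), the trend removed (7.50e-05) and 4 of the fits without 1 library (0.0178 to 0.0455).

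No paired analysis was possible because the labels give libraries running numbers that no group shares, and the numbers 1 to 3 of the columns only name libraries. The cause of these shifts was not tested. The depth of 8935609 counts or more per library held at least 266 counts of each of the 9 genes, and 3 libraries per group limit the precision.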
